A study of Mus musculus with 2 samples.

Results

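The Tshz1 Foxp2 Chst9 neurons are a population of GABAergic nuclei of the mouse preoptic area (POA), described here against the other nuclei and between stimulated and sham-treated mice. Nuclei were chosen by their raw counts of unique molecular identifiers (UMIs, tags that each count 1 captured mRNA molecule): at least 1 UMI of Chst9, 2 of Foxp2, 1 of Tshz1 and 2 of Meis2. Of 20952 nuclei with 200 to 7500 detected genes, at most 5% mitochondrial UMIs and at least 2000 UMIs, 543 met the rule, and they are called Chst9 neurons below. The other 20409 nuclei serve as their comparison. The UMI counts of Chst9, Foxp2, Tshz1 and Meis2 chose these nuclei, so high levels of those genes describe the choice and are no result.

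The study delivered ultrasound to the POA of freely moving mice and asked, with single-nucleus RNA-sequencing, which neurons respond. The US+ group was WT mice with ultrasound stimulation and the US- group was WT mice with sham treatment, all 6 to 9 weeks old and, in the study's methods, of the strain C57BL/6NCrl. The POA was taken about 1 h after the ultrasound, nuclei of 4 mice were pooled in each group, and nuclei stained for NeuN, an antigen of neuronal nuclei, were sorted. Each group is thus 1 library, so no test across mice was possible, no p-value is given, and every interval below is an exact 95% interval that covers counting error only.

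Foxp2, Tshz1 and Meis2 encode transcription factors that GABAergic neurons from the lateral ganglionic eminence use during development, and the protein of Chst9 adds sulfate to sugar chains in the Golgi apparatus. Neurons that share Foxp2, Tshz1 and Meis2 are known from the intercalated cell masses of the amygdala, and Tshz1 also marks a minor kind of striatal projection neuron, called eccentric, that carries the dopamine receptor gene Drd1. Immediate early genes, such as Fos, Npas4 and Arc, are transcribed within minutes when a neuron is driven to fire, through factors such as CREB and SRF that are already present in the cell.

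The US+ and US- libraries held 12075 and 11725 barcodes with 95029281 and 101948623 UMIs, of which 9912 and 11040 nuclei were kept, and the minimum of 2000 UMIs removed 1987 and 623 barcodes. Of the barcodes, 29 occurred in both libraries, 19 of them among the kept nuclei and 0 among the Chst9 neurons. No doublet caller was run here. Levels are CPM, the summed UMIs of a gene over the nuclei named, divided by all UMIs of those nuclei and scaled to a sum of 1000000. The Chst9 neurons held 1689781 UMIs in US+ and 3235810 UMIs in US-, so 1 CPM is between 1 and 4 UMIs.

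Chst9 neurons made up 182 nuclei or 1.84% of the US+ library (exact binomial interval 1.58 to 2.12%) and 361 nuclei or 3.27% of the US- library (2.95 to 3.62%). With a minimum of 4000 UMIs the shares were 1.78% in US+ and 3.07% in US-. The sort and the dissection could also set these shares, and their part was not tested. Striatal-type nuclei were also a smaller share in US+ than in US-. Those with Drd1 and Rarb but no Adora2a made up 1.29% of US+ and 4.15% of US-. Those with Drd2, Adora2a and Rarb made up 0.303% of US+ and 1.93% of US-. Glutamatergic nuclei, with at least 2 UMIs of Slc17a6 and none of Gad1 or Gad2, made up 3.21% of US+ and 2.57% of US-. With 1 dissected pool in each group, a difference between animals, a shift of the dissection and an effect of ultrasound on these shares cannot be told apart.

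The median Chst9 neuron had 6980 UMIs in US+ and 6614 UMIs in US-, and 2828 and 2870 detected genes. The median count per Chst9 neuron was 3 UMIs of Chst9 in both libraries, 11 in US+ and 14 in US- for Foxp2, 2 and 3 for Tshz1, and 15 and 17 for Meis2. In 79 US+ and 161 US- Chst9 neurons at least 1 of these genes was exactly at its minimum. Just outside the rule, 209 US+ and 730 US- nuclei lacked only Chst9, 55 and 92 lacked only Tshz1, 18 and 20 missed only Foxp2, and 8 and 7 missed only Meis2. The nuclei that lacked only Chst9 had 342 CPM of Grm8 in US+ and 271 CPM in US-, against 1363 and 1485 CPM in the Chst9 neurons.

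The Chst9 neurons carried the genes of GABA synthesis and release. Gad1, which encodes a GABA-synthesizing enzyme, was at 201 CPM in US+, against 174 CPM in US- Chst9 neurons, and at 95.1 and 109 CPM in the other nuclei. After each nucleus was thinned at random to 2000 UMIs, 36.3% of US+ and 34.3% of US- Chst9 neurons kept a Gad1 UMI (75.8% and 72.0% before thinning), against 15.5% and 18.4% of the other nuclei. Gad2, the gene of the other such enzyme, was at 217 and 229 CPM in Chst9 neurons, against 222 and 245 CPM in the other nuclei, and after thinning it was left in 33.5% and 28.3% of Chst9 neurons, against 32.6% and 36.8% of the other nuclei. Slc32a1, the vesicular GABA transporter gene, was at 42.6 and 29.4 CPM in Chst9 neurons, against 28.4 and 26.1 CPM in the other nuclei, and of 5 GABA transmitter genes 0 passed the 2-fold rule in either direction. The other nuclei include many GABAergic neurons. Slc17a6, the gene of a vesicular glutamate transporter, was at 17.2 and 8.04 CPM in the Chst9 neurons and at 33.0 and 23.1 CPM in the other nuclei. The defining transmitter genes of the label were thus present.

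The rule genes stood as follows, as a description. Chst9 was at 452 CPM in US+, against 490.4 CPM in US- Chst9 neurons, and at 17.3 and 9.28 CPM in the other nuclei. Tshz1 was at 284 and 394 CPM, against 24.7 and 37.6 CPM. Foxp2 and Meis2 were the most abundant, Foxp2 with 1388 and 1994 CPM and Meis2 with 1936 and 2061 CPM. Foxp2 lies on chromosome 6 (14901349 to 15441977) and Meis2 on chromosome 2 (115863064 to 116065839), in the GENCODE M21 annotation of GRCm38. These are levels of UMIs from the 3' ends and from unspliced RNA of nuclei, with no correction for gene length.

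Drd1, a marker given for this population but not used by the rule, was at 42.6 CPM in US+, against 49.8 CPM in US- Chst9 neurons, 4.00-fold and 2.09-fold the level of the other nuclei. A Drd1 UMI was found in 46 of 182 US+ and 117 of 361 US- Chst9 neurons, and after thinning in 8.79% and 9.70% of them, against 0.314% and 0.704% of the glutamatergic nuclei. Drd1-type nuclei, which were chosen for Drd1, had 177 and 217 CPM. Drd2 was at 10.7 CPM in US+, against 13.6 CPM in US- Chst9 neurons, and of the nuclei with Drd1 only 1 of 46 in US+ and 4 of 117 in US- also had Drd2.

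To see whether the rule picks out 1 kind of cell, all kept nuclei were clustered without the rule genes and without early genes. The 35 clusters placed 452 of the 543 Chst9 neurons, or 83.2%, in a single cluster of 977 nuclei, which is called the main cluster here. It held 144 of the 182 Chst9 neurons in US+ and 308 of the 361 in US-, next to 115 and 410 nuclei that did not meet the rule. After thinning, 11.3% of those 115 and 13.4% of those 410 nuclei kept a Drd1 UMI. The 91 Chst9 neurons outside the main cluster were spread over 22 other clusters. They had a median of 17159 UMIs in US+ and 15862 in US-, against 6036 and 6061.5 UMIs for Chst9 neurons in the main cluster. Deep nuclei reach UMI minimums more easily, and whether these were doublets was not tested. Both values are given for some results that differ within the main cluster, and results without such a value describe all Chst9 neurons.

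Of 11931 genes with a mean of at least 5 CPM, 160 genes (1.34%) were at least 2-fold higher and 193 genes (1.62%) at least 2-fold lower in Chst9 neurons than in the other nuclei, with 1 CPM added to each level and in both libraries. With TMM scaling factors, which assume that most genes do not differ, the numbers were 199 higher and 142 lower, and within the main cluster 251 higher and 483 lower. The heat map shows the levels of identity genes by population and library.

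**Figure D1:**
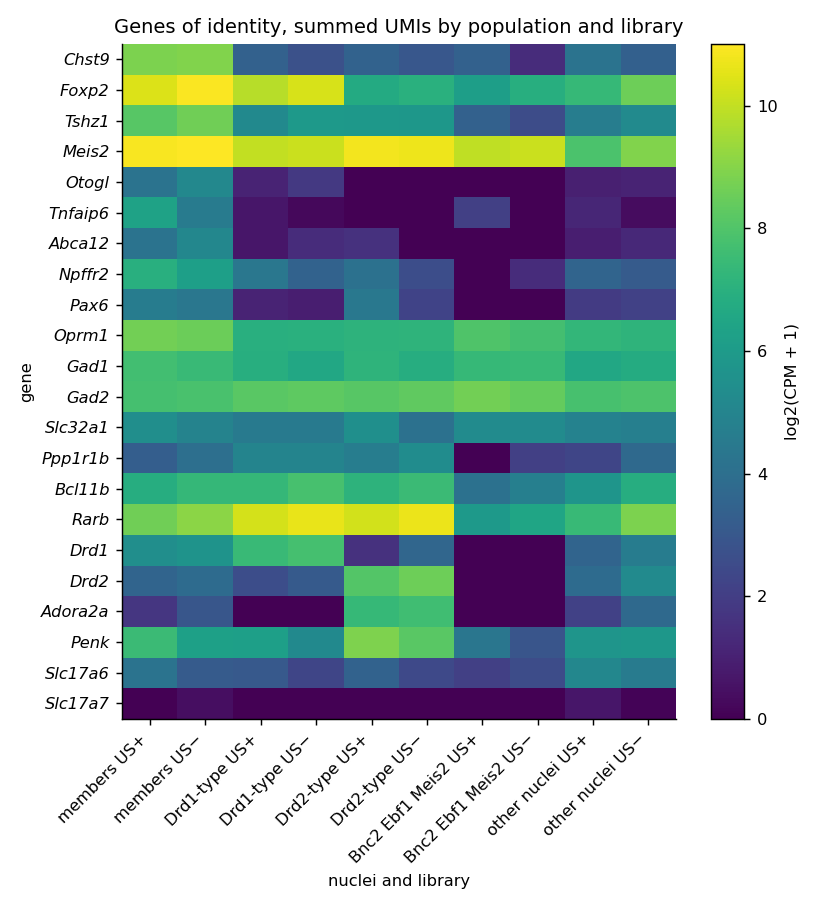
Level of identity genes (rows) as log2 of CPM with 1 CPM added (colour), in Chst9 neurons (members), Drd1-type, Drd2-type and Bnc2 Ebf1 Meis2 nuclei and all other nuclei (columns), each in US+ and US-. Otogl stands at 17.2 and 34.0 CPM in US+ and US- Chst9 neurons, against 0.962 and 1.15 CPM in the other nuclei, and the rows of Chst9, Foxp2, Tshz1 and Meis2 show the genes that chose the members.

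The genes that stood highest after Chst9 were mostly of low abundance. Tnfaip6, whose secreted protein binds hyaluronan of the extracellular matrix, was at 79.3 CPM in US+, against 23.2 CPM in US- Chst9 neurons, and at 1.29 and 0.272 CPM in the other nuclei. Its UMIs came from 12.6% of US+ and 4.43% of US- Chst9 neurons, so most Chst9 neurons showed none. B020031H02Rik was at 138 and 200.3 CPM, against 3.86 and 6.24 CPM in the other nuclei. Unlike Tnfaip6, this transcript was found in 61.0% and 65.9% of Chst9 neurons. Gm45680 stood at 139 and 154 CPM, against 5.25 and 6.07 CPM in the other nuclei. Otogl, a relative of the inner ear gene otogelin, Abca12, a lipid transporter gene, and Rai14, whose protein binds actin, were between 11.4-fold and 29.6-fold the level of other nuclei. Npffr2, the gene of a receptor for neuropeptide FF, was at 122 CPM in US+, against 72.3 CPM in US- Chst9 neurons, and at 10.8 and 8.06 CPM in the other nuclei.

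Among 45 identity transcription factors that could be compared, 9 were higher and 6 lower in Chst9 neurons. Over all genes compared, 1.34% were higher and 1.62% lower. Any rule genes among the 9 are high by the choice of nuclei and are no result. The count without them is not given here, so the 9 are not read against the 1.34%. Besides the rule genes, Pbx3, whose protein binds DNA together with Meis proteins, was at 949.8 and 1415 CPM, against 188 and 309 CPM in the other nuclei. Pax6 was 8.49-fold higher in US+ and 5.75-fold higher in US-. Nfix, of the nuclear factor I family, was 5.38-fold and 8.54-fold higher. Zfhx3, a homeobox gene of many hypothalamic neurons, was low: it was at 341 and 151 CPM, against 909 and 556 CPM in the other nuclei, and Tshz2, a relative of Tshz1, at 0.388 and 0.297 times the level of the others. In the list of 17 preoptic and hypothalamic genes compared, 0 were higher and 7 were lower, among them Onecut2 at 6.51 and 8.04 CPM against 30.4 and 22.0 CPM.

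Several receptor and channel genes were higher in Chst9 neurons. Grm8, which encodes a presynaptic metabotropic glutamate receptor, was at 1363 CPM in US+, against 1485 CPM in US-, 3.97-fold and 6.1-fold the level of the other nuclei. Oprm1, the gene of the mu opioid receptor, was at 405 and 371 CPM against 156 and 142 CPM, and after thinning 57.7% of US+ and 54.6% of US- Chst9 neurons kept an Oprm1 UMI, against 22.6% and 22.4% of the other nuclei. Htr1f, a serotonin receptor gene, was 4.33-fold and 3.26-fold higher. Of 50 voltage-gated channel genes compared, 3 were higher and 0 lower, with a median of 1.01-fold in US+ and 1.03-fold in US-. Kcnd2, the gene of a subunit of A-type channels, was at 5865 and 7004 CPM against 2294 and 2373 CPM, and Kcnh5, of the ether-a-go-go family, was 3.17-fold and 4.66-fold higher.

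Other receptor genes were lower in Chst9 neurons. Grik1, a kainate receptor gene, was at 147 CPM in US+, against 136 CPM in US- Chst9 neurons, and at 452 and 398 CPM in the other nuclei. Htr2c, a serotonin receptor gene, was at 0.479 and 0.387 times the level of the others, Chrm3, a muscarinic receptor gene, at 0.476 and 0.387 times, and Cnr1, the cannabinoid receptor gene, at 0.399 and 0.338 times. Il1rapl2, of the interleukin receptor accessory family, was at 130.2 and 145 CPM against 517 and 537 CPM. Trpm2 is the gene of a cation channel that opens with heat and oxidative stress. It was at 11.8 and 11.1 CPM in the Chst9 neurons, against 23.1 and 25.2 CPM in the other nuclei. With 1 CPM added, Trpm2 was past the 2-fold rule in US- only, so it was not called lower. Its UMIs were found in 18 of 182 US+ and 24 of 361 US- Chst9 neurons.

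Lists of known GABAergic kinds were compared next. Of 9 intercalated cell genes, 6 were higher in Chst9 neurons, but 3 of the 6 are rule genes, and the others were Pax6, Oprm1 and Drd1, while Etv1 was lower. Of 11 genes of eccentric projection neurons, 4 were higher, namely Otof at 89.4 and 134 CPM against 40.3 and 36.0 CPM, Cacng5, Pcdh8 and Nfix, and Grik1 was lower. Of 21 striatal projection neuron genes, 0 were called in either direction, with a median of 1.66-fold in US+ and 1.19-fold in US- of the level of other nuclei, which include striatal-type nuclei. Ppp1r1b, a phosphatase inhibitor gene at the core of dopamine signalling in striatal neurons, was at only 8.88 and 15.1 CPM. No cell type name was drawn from these lists.

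The closest populations differed from Chst9 neurons as follows. Against Drd1-type nuclei (at least 2 UMIs of Drd1, 1 of Rarb, none of Adora2a), 218 of 11379 genes were higher (1.92%) and 137 lower (1.2%). Nfib, another nuclear factor I gene, was at 356 CPM in US+, against 366 CPM in US- Chst9 neurons, and at 28.1 and 23.5 CPM in Drd1-type nuclei. Ntn1, which encodes an axon guidance protein, was at 17.8 and 19.2 CPM in Chst9 neurons, against 94.6 and 117 CPM in Drd1-type nuclei. Against Drd2-type nuclei (2 UMIs each of Drd2 and Adora2a, 1 of Rarb), 336 of 11159 genes were higher (3.01%) and 187 lower (1.68%). Erbb4, a neuregulin receptor gene, was at 5597 and 6530 CPM in Chst9 neurons and at 407 and 350.1 CPM in Drd2-type nuclei. Against Bnc2 Ebf1 Meis2 nuclei (2 UMIs of each and none of either dopamine receptor), 468 of 11493 genes were higher (4.07%) and 454 lower (3.95%), and 6530403H02Rik was at 540 and 876 CPM in Chst9 neurons, against 6.41 and 4.84 CPM. These 89 Bnc2 Ebf1 Meis2 nuclei are few, so their levels rest on few UMIs.

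The Chst9 neurons were not uniform. Clustered on their own, they fell into 6 groups of 33 to 151 nuclei, whose leading genes are given as identity only. The largest, with 151 nuclei, was led by Otogl and Abca12 and had 84.7 CPM of Drd1 and 592 CPM of Rarb, a retinoic acid receptor gene. A group of 66 nuclei was led by Col23a1 and Tnfaip6, with 12.7 CPM of Drd1 and 17.0 CPM of Rarb. Both genes were thus low in the group led by Tnfaip6. A group of 136 nuclei was led by Npffr2, and by the early genes Gadd45b, Egr3 and Dusp5. Those early genes differed between the libraries, so the share of this group in each library, given below, is not read as a result. Groups of 113 and 33 nuclei were deep, with a median of 15465 and 15200 UMIs, and only 52 and 5 of them lay in the main cluster. The group of 113 was led by Il1rapl2, Gpc5 and Cntnap4, and the group of 33 by Ano2 and Prkch.

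Between libraries, Chst9 neurons of US+ mice had many immediate early genes at higher levels. Of 9804 genes with a mean of at least 10 CPM, 607 (6.19%) were at least 1.5-fold higher and 367 (3.74%) at least 1.5-fold lower in US+ than in US- Chst9 neurons, with 1 CPM added, and "rose" and "fell" below are used of genes past this fold. The interval left out 1 for 511 of the 607 and 268 of the 367. Within the main cluster, with the minimum of 10 CPM applied to its own levels, the numbers were 728 higher and 697 lower. Of the 607 and 367 genes, 441 and 272 were past the fold in the same direction within the main cluster. The median ratio over all 9804 genes was 1.01 in the Chst9 neurons and 1.02 in the other nuclei. With 1 CPM added, 43 genes were at least 3-fold and 20 genes at least 5-fold higher, while 0 genes were 3-fold lower. Of the 607 genes, 77 were also at least 1.5-fold higher in the other nuclei of US+. The share of all 9804 genes past this fold in the other nuclei is not given here, so the overlap is not read as a result.

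**Figure D2:**
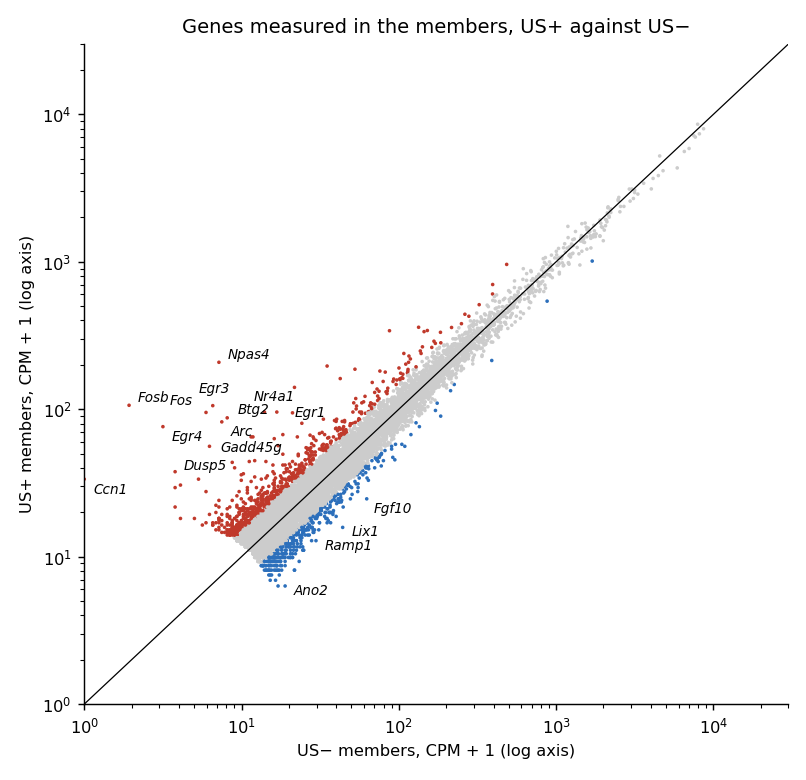
Level of each of 9804 genes in Chst9 neurons (members) of US+ (vertical axis) and US- (horizontal axis), in CPM with 1 CPM added on log axes, where each point is a gene, red points are at least 1.5-fold higher and blue points at least 1.5-fold lower in US+, and the line marks equal levels. Fosb, Npas4, Egr4 and Ccn1 lie far above the line, and Ano2, Lix1, Fgf10 and Ramp1 below it.

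Genes of the Fos and Jun family, whose proteins form the transcription factor AP-1, rose. Fosb was at 105 CPM in US+ Chst9 neurons, against 0.927 CPM in US- Chst9 neurons, from 178 UMIs in 87 nuclei and 3 UMIs in 3 nuclei, a ratio of 114 (interval 38.3 to 556). In the other nuclei the ratio was 17.2. Fos, on chromosome 12 (85473890 to 85477273), was at 94.1 CPM in US+, against 4.94 CPM in US- Chst9 neurons, from 159 and 16 UMIs (ratio 19.0, 11.4 to 34.1). Of the 16 Fos UMIs in US-, 7 came from a single nucleus, and without the 10% of Chst9 neurons with the most UMIs the ratio was 51.7. Junb was at 139.7 and 20.7 CPM (ratio 6.75, 5.12 to 8.99).

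Npas4, a transcription factor gene that depends on calcium entry, rose as well. It was at 207 CPM in US+, against 6.18 CPM in US- Chst9 neurons, with 350 UMIs in 114 of 182 nuclei and 20 UMIs in 17 of 361 nuclei (ratio 33.5, 21.4 to 55.5). The other nuclei had 35.0 and 6.97 CPM. In US+, 76 of the 87 Chst9 neurons with Fosb also had Npas4, 57 of the 182 had neither gene, and 51 of the 64 with Fos also had Fosb. These shares are unthinned, and deeper nuclei are more likely to show any gene.

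The Egr genes, which encode zinc finger transcription factors, rose too. Egr4 was at 75.2 CPM in US+, against 2.16 CPM in US- Chst9 neurons (ratio 34.7, 16.4 to 88.2). Egr3 was at 105 and 5.56 CPM (ratio 18.8). Egr1, which had the highest level of the 3 in US-, was at 94.7 and 15.8 CPM (ratio 6.01, 4.36 to 8.40). Of the Nr4a orphan nuclear receptors, Nr4a1 was at 94.7 and 13.0 CPM (ratio 7.29, 5.16 to 10.5).

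Early genes that act outside the nucleus or on signalling rose too. Arc, whose protein removes glutamate receptors from synapses, was at 81.1 CPM in US+, against 6.49 CPM in US- Chst9 neurons (ratio 12.5, 7.86 to 20.8). Dusp5, which encodes a phosphatase that switches off ERK kinases in the nucleus, was at 36.7 and 2.78 CPM (ratio 13.2), while its ratio in the other nuclei was 1.64. Ccn1, the gene of a secreted matrix protein, had 55 UMIs in 31 of 182 US+ and 0 UMIs in 361 US- Chst9 neurons, at 32.5 CPM in US+. Taking 3 UMIs as the limit that a count of 0 allows, it was at least 35.1-fold higher in US+, and the other nuclei had 0.95 CPM in US+, against 0.742 CPM in US-. Btg2, an antiproliferative gene, rose 12.2-fold and Gadd45g, a stress-response gene, 10.5-fold.

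Some early genes did not follow. Dusp1, another phosphatase gene and the fifth of the early genes that the study used as its activity readout, had 8 UMIs in US+ and 9 UMIs in US- Chst9 neurons (ratio 1.70, 0.571 to 4.97), too few for a ratio to be read. Of the 25 rapid early genes with enough counts, 23 rose and 0 fell, with a median ratio of 6.75 in Chst9 neurons and 1.64 in the other nuclei. The 2 that did not pass were Sgk1 at 71.6 and 94.9 CPM and Crem at 23.1 and 25.3 CPM. Over all 9804 genes in Chst9 neurons, 6.19% rose and 3.74% fell. In Drd1-type nuclei 20 of the 25 were higher and 1 lower, with a median of 3.54 with 1 CPM added, where Chst9 neurons had 6.48. The share of all 9804 genes past this fold in Drd1-type nuclei is not given here. This count and the later ones for Drd1-type nuclei are therefore not read as results.

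**Figure D3:**
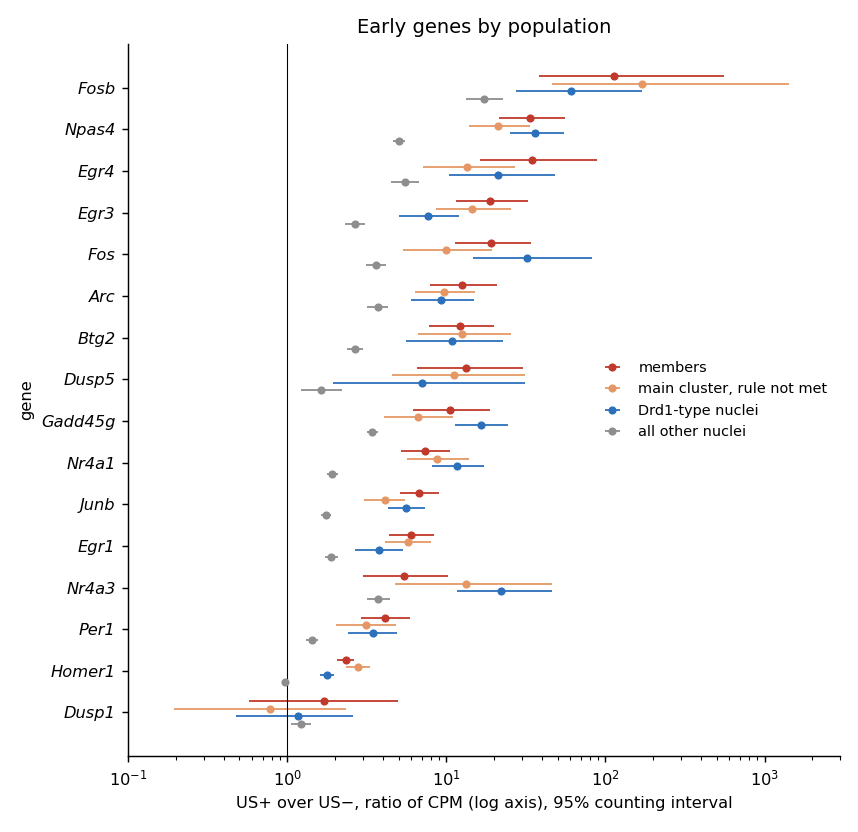
Ratio of CPM in US+ over US- (log axis) for 16 early genes (rows) in Chst9 neurons (members), main-cluster nuclei that did not meet the rule, Drd1-type nuclei and all other nuclei, where points are ratios and bars exact 95% counting intervals. Fosb has a ratio of 114 in Chst9 neurons and 17.2 in the other nuclei, and the interval of Dusp1 in Chst9 neurons holds 1.

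Promoter sequences are shown for 6 of these genes because CREB, 1 of the factors present in resting neurons, binds the cAMP response element (CRE), the letters TGACG followed by TCA, and also the core TGACG alone. The windows come from RefSeq promoters of GRCm38.p6 and are cut to the stretch around the matches, 5′ to 3′ on the strand of the gene. Capitals mark TGACG or its reverse complement CGTCA, and a full CRE counts as a core on both strands.
Fosb (chr7:19310081-19310125, minus strand): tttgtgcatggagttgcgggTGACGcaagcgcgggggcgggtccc
Npas4 (chr19:4990116-4990170, minus strand): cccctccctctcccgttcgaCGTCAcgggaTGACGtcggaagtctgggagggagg
Fos (chr12:85473741-85473848, plus strand): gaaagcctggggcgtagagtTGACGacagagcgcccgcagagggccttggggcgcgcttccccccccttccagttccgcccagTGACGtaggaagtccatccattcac
Egr4 (chr6:85513674-85513786, minus strand): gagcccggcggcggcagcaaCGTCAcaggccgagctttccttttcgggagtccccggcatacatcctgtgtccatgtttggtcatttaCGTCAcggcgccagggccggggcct
Ccn1 (chr3:145650019-145650063, minus strand): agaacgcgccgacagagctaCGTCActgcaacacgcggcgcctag
Nr4a1 (chr15:101266596-101266830, plus strand): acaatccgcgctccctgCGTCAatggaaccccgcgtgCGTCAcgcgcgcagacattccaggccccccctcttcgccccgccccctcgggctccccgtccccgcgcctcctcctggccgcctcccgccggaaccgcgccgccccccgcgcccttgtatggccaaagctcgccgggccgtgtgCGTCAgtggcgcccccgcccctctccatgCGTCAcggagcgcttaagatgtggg

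The core TGACG, searched on both strands of the 250 bases before the start, was found once at Fosb and Ccn1, 2 times at Fos, Npas4 and Egr4, and 4 times at Nr4a1. It was in 13 of the 19 rapid early genes with a window (68.4%), against 28.7% of the 7482 tested genes with a window and 17.8% of all 32851 windows. Among the 10 genes with the highest ratio in Chst9 neurons the core was in 7 of the 8 with a window. These 7 are also among the 13, so they are no second observation. For the 10 genes with the lowest ratio the core was in 0 of 7. The full CRE was in 1 of the 19 windows, that of Btg2, against 3.02% of tested genes, and the CArG box, the site of SRF, in 1 of the 19, that of Dusp5, against 1.11%. A match of letters is a description and no sign of binding.

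Nucleus by nucleus, the early genes were spread over many Chst9 neurons. After thinning to 2000 UMIs, 90 of 182 US+ Chst9 neurons (49.5%, exact binomial interval 42.0 to 56.9%) had a UMI of at least 1 of Fos, Fosb, Nr4a1, Egr1 and Dusp1, against 20 of 361 in US- (5.54%, 3.42 to 8.43%). Without thinning the shares were 69.2% in US+ and 18.6% in US-. At least 3 of the 5 genes were found together in 14 US+ Chst9 neurons (7.69%) and in 0 of 361 in US-, which allows a share of up to 1.02%. In the other nuclei, thinned in the same way, 9.15% of US+ and 4.95% of US- had at least 1. Drd1-type nuclei had at least 1 in 33.6% of US+ and 6.77% of US-, and without thinning in 73.4% and 18.1%. Main-cluster nuclei that did not meet the rule had at least 1 in 45.2% of US+ and 9.27% of US- after thinning. For a single gene, Fosb remained in 19.2% of US+ Chst9 neurons and in 0 of 361 in US- (47.8% and 0.831% before thinning). It remained in 0 of 318 and 0 of 284 glutamatergic nuclei of US+ and US-. These glutamatergic nuclei are a narrow set: before thinning, Slc17a6 was found in 1791 of 9730 US+ and 1382 of 10679 US- other nuclei. Fosb shares of the other populations after thinning are not given here.

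**Figure D4:**
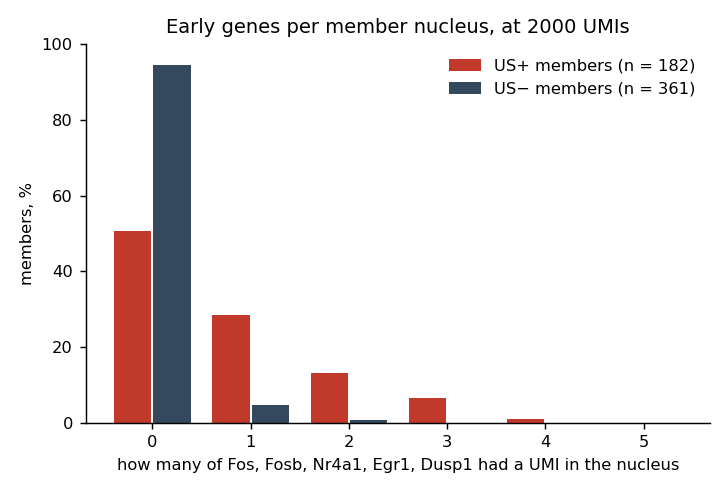
Share of Chst9 neurons (members, percent) by how many of Fos, Fosb, Nr4a1, Egr1 and Dusp1 had a UMI after thinning to 2000 UMIs, in US+ (n = 182) and US- (n = 361). At least 1 gene was found in 49.5% of US+ and 5.54% of US- Chst9 neurons.

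Summed over the 5 genes, Chst9 neurons had 394 CPM in US+, against 37.4 CPM in US- (665 and 121 UMIs), a ratio of 10.5 (8.66 to 12.9). Drd1-type nuclei had 241 and 25.7 CPM (ratio 9.37, 7.72 to 11.4), and this interval overlaps that of the Chst9 neurons. Drd2-type nuclei had 163 and 26.1 CPM (ratio 6.24, 4.51 to 8.63). The nuclei of the main cluster that did not meet the rule had 445 and 50.7 CPM (ratio 8.78, 7.12 to 10.9). Chst9 neurons inside the main cluster had 517 and 42.9 CPM, and those outside it 199 and 25.1 CPM. Bnc2 Ebf1 Meis2 nuclei, which share Meis2 with the Chst9 neurons, had 60.9 and 21.0 CPM (ratio 2.90, 1.36 to 6.4), and all other nuclei 60.3 and 25.4 CPM (ratio 2.37). In glutamatergic nuclei the sum was 25.1 CPM in US+, against 26.3 CPM in US- (ratio 0.955, 0.685 to 1.33). The 6 groups within the Chst9 neurons had ratios of 4.59 to 46.0, resting on as few as 5 UMIs in a library.

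**Figure D5:**
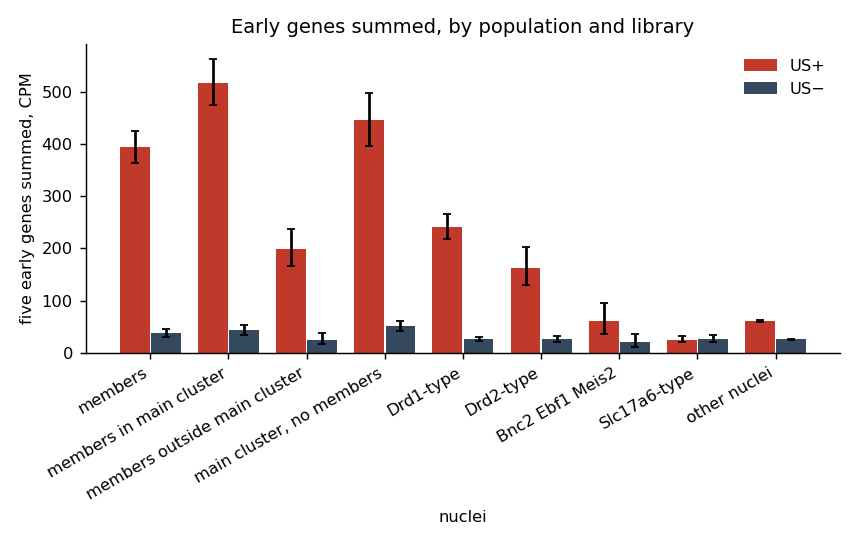
Summed level of Fos, Fosb, Nr4a1, Egr1 and Dusp1 (CPM) in US+ and US-, for Chst9 neurons (members), those inside and outside the main cluster, main-cluster nuclei that did not meet the rule and the other populations, where bars are levels and lines exact 95% Poisson intervals. Chst9 neurons stand at 394 CPM in US+, against 37.4 CPM in US-, and glutamatergic (Slc17a6-type) nuclei at 25.1 and 26.3 CPM.

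Among the slower activity-induced genes, 6 of 15 rose and 0 fell, with a median ratio of 1.41, where 6.19% of all genes rose and 3.74% fell. Within the main cluster 8 of the 15 rose and 0 fell. On the scale with 1 CPM added the median was 1.37 in Chst9 neurons, and Drd1-type nuclei had 9 of the 15 higher with a median of 1.69. Penk, the gene of the enkephalin precursor, was at 180.5 CPM in US+, against 74.8 CPM in US- Chst9 neurons (ratio 2.41, 2.03 to 2.87), while it was at 51.9 and 56.3 CPM in the other nuclei. After thinning, a Penk UMI was left in 24.2% of US+ and 11.9% of US- Chst9 neurons. All other nuclei kept it in 7.34% and 9.38%, and glutamatergic nuclei in 4.09% and 5.28%. Drd2-type nuclei kept it in 60.0% in US+, against 41.3% in US-, and Drd1-type nuclei in 11.7% and 7.21%. Within the main cluster the Penk ratio was 2.96 (2.42 to 3.63). Scg2, a granin of dense-core vesicles, was at 189 and 99.2 CPM (ratio 1.91), and Ptgs2, which encodes cyclooxygenase-2, at 17.2 and 3.09 CPM (ratio 5.55). Rgs2, a brake on G protein signalling, was at 42.6 and 7.73 CPM (ratio 5.51). Bdnf was at 5.33 and 4.94 CPM, below the level set for a comparison.

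Of 10 neuropeptide genes, 8 rose and 0 fell in US+ Chst9 neurons, where 6.19% of all genes rose and 3.74% fell. Their median was 1.91-fold, against 1.05-fold in the other nuclei. In Drd1-type nuclei 7 of the 10 were higher and 0 lower, with a median of 2.01-fold with 1 CPM added, where Chst9 neurons had 1.86-fold. Within the main cluster 5 of the 10 rose and 1 fell. Gal, the galanin gene, was at 26.6 CPM in US+, against 8.65 CPM in US- Chst9 neurons, and at 34.6 and 15.1 CPM in the other nuclei, with ratios of 3.08 and 2.29. Oxt, the oxytocin gene, outside that list, was at 33.1 and 15.5 CPM, below the 47.6 and 25.1 CPM of the other nuclei. The part of free RNA in these ratios was not tested. Npy rose 2.50-fold over all Chst9 neurons but was at 0.592 times the US- level within the main cluster (0.196 to 1.51), and Sst rose 1.95-fold but was at 0.769 times within it (0.414 to 1.36). Tnfaip6, the matrix gene, rose 3.42-fold (2.56 to 4.60), and Npffr2 rose 1.69-fold (1.39 to 2.04).

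Genes that glucocorticoid hormones induce in many tissues were higher in US+ as well, with 6 of 7 past the fold, where 6.19% of all genes rose. Their median was 2.63-fold in Chst9 neurons, against 1.60-fold in the other nuclei. In Drd1-type nuclei 6 of the 7 were higher and 1 lower, with a median of 2.23-fold with 1 CPM added, where Chst9 neurons had 2.58-fold. Fkbp5, a co-chaperone gene of the glucocorticoid receptor, was at 84.6 CPM in US+, against 32.1 CPM in US- Chst9 neurons (ratio 2.63, 2.03 to 3.42). Zbtb16, a zinc finger gene, was at 32.5 and 4.33 CPM (ratio 7.52, 4.13 to 14.6). Sgk1, the 1 that did not pass, had a ratio of 0.755. Per1, a clock gene that is also an early gene, was at 62.1 and 15.1 CPM (ratio 4.10), and of 18 clock genes 4 rose and 1, Dbp, fell (10.1 and 23.8 CPM). Of 14 heat shock and cold-inducible genes 0 rose and 1, Hsph1, fell (17.8 and 28.7 CPM). Within the main cluster 1 of the 14 rose and 0 fell. Cirbp, a cold-inducible RNA-binding protein gene, was at 54.4 and 39.2 CPM (ratio 1.39) and Rbm3 at 29.6 and 36.8 CPM (ratio 0.805).

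Genes of lower level in US+ Chst9 neurons changed less. The 10 lowest ratios lay between 0.297 and 0.412, and these genes had at most 61.5 CPM in US-. Fgf10, a growth factor gene, was at 23.7 CPM in US+, against 61.5 CPM in US- Chst9 neurons (ratio 0.385, 0.267 to 0.543), and it was lower in the other nuclei of US+ too (ratio 0.474). Lix1 was at 14.8 and 43.0 CPM (ratio 0.344, 0.215 to 0.530), with a ratio of 0.892 in the other nuclei. Ramp1, a subunit of the receptor for calcitonin gene-related peptide, was at 11.8 and 28.7 CPM. Ano2, a chloride channel gene that led 1 of the deep groups, had a ratio of 0.297 (0.129 to 0.604), and within the main cluster its interval held 1 (0.00458 to 1.36), as did those of Tanc1 and Zfp715. Of 49 voltage-gated channel genes 2 rose and 2 fell, 1 of which was Kcnq5, of the M-type potassium channels, at 1010.2 and 1695 CPM (ratio 0.596), which was as low in the other nuclei (ratio 0.582). Otogl stood at 0.505 times, 6530403H02Rik at 0.616 times and Casz1, of the eccentric list, at 0.511 times the US- level, while Tnfaip6 and Npffr2, which also set Chst9 neurons apart, rose. Otogl, 6530403H02Rik and Casz1 are among the 10 leading genes of the group of 151 nuclei, which held 14.3% of US+ and 34.6% of US- Chst9 neurons. Fgf10 and Kcnq5 are among those of a group of 44 nuclei with 4.95% of US+ and 9.70% of US- Chst9 neurons, and Ano2 leads the group of 33 with 2.20% and 8.03%. Since these genes also define the groups, fewer nuclei of a group in US+ and less of the transcript in each nucleus cannot be told apart for them. Npffr2 and Penk are among the leading genes of the group of 136 nuclei. That group held 35.7% of US+ and 19.7% of US- Chst9 neurons, and its part in their ratios was not tested. Tnfaip6 is among those of the group of 66, which held 12.1% and 12.2%.

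The receptor and channel lists are read against the 6.19% of all genes that were higher and the 3.74% that were lower. Of 12 peptide and hormone receptor genes 4 rose and 0 fell, among them Prlr, the prolactin receptor gene, at 84.6 and 39.2 CPM, and within the main cluster 2 rose and 1 fell. Of 17 GABA and glycine receptor genes 2 rose and 1 fell, and within the main cluster 1 rose and 0 fell. Of 22 glutamate receptor genes, 0 rose and 0 fell, with ratios that had a median of 0.932. Trpm2 was at 11.8 CPM in US+, against 11.1 CPM in US- Chst9 neurons (ratio 1.06, 0.584 to 1.89), an interval that leaves room for a change of almost 1.89-fold. Of 11 TRP and PIEZO channel genes 1 rose, Trpv2, at 20.1 and 9.27 CPM. Drd1 had a ratio of 0.856 (0.639 to 1.14) and Oprm1 of 1.09 (0.992 to 1.2).

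Transcripts of other cell types moved with the libraries. The 10 oligodendrocyte markers summed to 156 CPM in US+, against 69.2 CPM in US- Chst9 neurons, and 3 of the 4 tested rose, but within the main cluster the sums were 79.4 and 75.4 CPM. The 10 astrocyte markers summed to 314 and 343 CPM, of which Slc4a4 gave 232 and 301 CPM, while Slc1a3, a glial glutamate transporter gene, was at 29.6 and 3.09 CPM. The 10 microglia markers summed to 131 and 103 CPM. Of these markers, 1 astrocyte and 1 oligodendrocyte gene and 2 microglia genes had 0 UMIs in US- Chst9 neurons. Mitochondrial transcripts summed to 1167 CPM in US+, against 1021 CPM in US-. The part of these transcripts in the differences above, those of the early genes included, was not tested. Within the main cluster the ratios of Fosb, Npas4 and Fos were 109, 37.7 and 21.4. Over all Chst9 neurons they were 114, 33.5 and 19.0.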

How the data were processed

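Single-nucleus RNA was measured in 1 US+ and 1 US- library of NeuN-sorted POA nuclei (10x Genomics 3' kit). The authors deposited raw UMI counts per gene and barcode from Cell Ranger 6.1.1 on mm10, and the study's methods name a normalization to the less saturated sample. Whether the deposited counts already carry that step, which would lower the depth of the other library, is not given in the sources used here. Filters and the rule are in the opening. UMIs were summed over nuclei and given as CPM, with exact conditional intervals for ratios, Clopper-Pearson intervals for shares and Poisson intervals for levels, which cover counting error only. A gene was called at 2-fold with 1 CPM added in both libraries against other nuclei, and at 1.5-fold between libraries. Nuclei were clustered with Seurat 5.3.0 (3962 variable genes, 40 components, resolution 0.8; Chst9 neurons alone with 1967 genes, 15 components, resolution 0.5), leaving out rule and early genes. TMM factors came from edgeR 4.0.16 in R 4.3.3, and other steps used Python 3.11.15 with scipy 1.17.1. The computations were tested on simulated data. Gene positions are from GENCODE M21 on GRCm38. The genes named were the rule genes and markers, up to 3 highest and 3 lowest genes of each list, the 12 highest and 8 lowest genes against other nuclei, the 10 highest and 10 lowest between libraries, the 5 early genes summed, Trpm2, and as many as 5 genes leading each cluster; other genes of the lists were named after their values were seen. Members and lists were chosen with earlier results of these data known, and restriction to the main cluster was added after seeing the data.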

Additional observations from a re-analysis of the deposited data

Results flagged for a closer look

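Sox6, a transcription factor gene, had a ratio of US+ over US- of 1.76 in Chst9 neurons, against 0.766 in the other nuclei, which moved in the opposite direction. The ratio within the main cluster was 2.35, with an interval of 0.989 to 5.64. Sox6 is among the leading genes of the deep group of 113 Chst9 neurons. That group held 30.8% of US+ and 15.8% of US- Chst9 neurons, and its part in the ratio was not tested. Npy, the neuropeptide Y gene, had a ratio of 2.50 in Chst9 neurons, against 0.692 in the other nuclei, and of 0.592 (0.196 to 1.51) within the main cluster. The difference between Chst9 neurons and other nuclei was not tested for either gene. Nuclei with more than 7500 genes were left out of every comparison, but 34 of them in US+ and 6 in US- met the rule. Their sum of Fos, Fosb, Nr4a1, Egr1 and Dusp1 was 103 CPM from 272 UMIs in US+, against 7.60 CPM from 3 UMIs in US-, a ratio of 13.5 (4.58 to 66.0). Their median depth was 67156 UMIs in US+ and 47543 UMIs in US-, and whether they were doublets was not tested.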

How the results depend on the processing

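The early gene result kept its direction under every setting tried: the median ratio of the rapid early genes, 6.75, ranged over 6.56 to 9.74, and the summed ratio, 10.5, was 14.2 with nuclei weighted equally, 13.3 without the 10% of nuclei with most UMIs, 13.0 with every minimum 1 UMI higher and 15.04 after thinning. In the other nuclei the summed ratio, 2.37, was 2.21 without the deepest 10%, 2.11 with any 3 of the 4 criteria and 2.20 after thinning. The share of Chst9 neurons, 1.84% in US+ and 3.27% in US-, was 1.04 and 1.81% with every minimum 1 UMI higher, 4.76 and 11.0% with any 3 criteria, 0.595 and 1.15% when thinned before the rule, 1.45 and 2.79% within the main cluster, and 2.61 and 6.50% for all its nuclei. Counts of genes depended on the settings. Against other nuclei, 251 genes were higher within the main cluster, and 346 were lower with no filter, 95 with 5 CPM added, 486 with nuclei weighted equally, 388 without the deepest 10% and 483 within the main cluster. Between libraries, 377 were higher with any 3 criteria and 3430 with no filter. Lower genes numbered 634 with nuclei weighted equally (722 higher), 601 without the deepest 10%, 696 with every minimum 1 UMI higher, 236 with any 3 criteria, 697 within the main cluster (728 higher), 2322 with no filter and 219 with 5 CPM added, and TMM gave 560 higher and 477 lower. With nuclei weighted equally 253 genes were lower than in Drd1-type nuclei. At resolution 2.0 the fullest cluster held 71.8% of Chst9 neurons. Fosb was in 47.8% of US+ Chst9 neurons without thinning. The causes were not tested. Of 158 values for 23 named genes, 143 moved by less than their counting interval, 15 moved further, and 0 of the values past the fold changed direction. Trpm2, which was not past it at 1.06, was at 0.864 without the deepest 10% and 0.943 with every minimum 1 UMI higher. No paired analysis was possible because each condition has 1 library. Genes under 10 CPM rest on few UMIs, so their differences were not detectable at this depth unless large.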
